A study of Homo sapiens with 6 samples.

Results

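The genes of the constitutive proteasome, the form of the complex that cells make without an immune stimulus, were followed on 6 Affymetrix Gene 1.0 ST arrays of HEK293 cells. Members were all array rows whose annotated gene symbol consists of PSMA, PSMB, PSMC, PSMD, PSME or PSMG and a number, without the interferon-inducible PSMB8, PSMB9, PSMB10, PSME1 and PSME2. The choice used symbols and no measured value. It gave 41 rows for 39 genes, of 33297 rows on the array, since PSMC1 and PSMC6 have 2 rows each. The RefSeq gene table lists 42 genes of this description, and the other 3 were not analysed here.

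HEK293 is a human embryonic kidney line that carries adenoviral genes. The study asked which mediators accompany an anti-HIV effect of transfection with an empty plasmid. There were 3 arrays titled control and 3 titled treatment. The labels disagree on what the cells received: per the source field, controls had a transient vector and the treatment group a Neo vector, but the series' design compares cells left untreated with cells given pCMV9. The groups are called control and treatment here. No dose, time after transfection or share of transfected cells is given, and no label says whether replicates were separate cultures, so p-values reflect the spread of these arrays alone, which may be technical. Because each array reads RNA of a whole culture, a change in some cells and a smaller change in all of them cannot be told apart.

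The proteasome destroys proteins tagged with ubiquitin. Its barrel, the 20S core, has outer rings of alpha subunits, which gate the entrance, and inner rings of beta subunits, some of which hold the cutting sites. The 19S cap has a ring of ATPases that unfold substrates and non-ATPase subunits that bind and remove ubiquitin. After interferon, PSMB8, PSMB9 and PSMB10 can take the places of the constitutive cutting subunits PSMB5, PSMB6 and PSMB7, which changes the peptides offered to T cells.

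Values are deposited linear intensities, tested as log2(intensity + 16) with limma and Benjamini-Hochberg adjustment over all 33297 rows. A row is called at an adjusted p under 0.05, "rose" and "fell" are used only for called rows, and changes are treatment minus control. Intensities of different genes depend on their probes and are not compared as transcript levels. The keratins KRT8 and KRT18, vimentin and the neurofilaments NEFL and NEFM, filaments known in HEK293, lay between 663 and 2339 on every array. PAX2, the other HEK293 marker followed, gave 44.4, 57.4 and 66.4 in the controls, then 98.1, 106 and 113 under treatment. The leukocyte genes PTPRC and CD3E lay between 8.45 and 36.2, but the monocyte gene CD14 between 142 and 252. Of 14 marker genes of HEK293 or other cell types, 0 were called (limma, lowest adjusted p = 0.328), where 0.372% of all rows were. Without overlap, 3 were lower under treatment, KRT18 (-0.23), vimentin (-0.29) and COL1A1 (-0.46), and 2 higher, PAX2 (0.76) and COL1A2 (0.47). Over all rows, 7.1% were lower and 7.47% higher without overlap. The 95th percentile of 360 olfactory receptor rows, which serve here as a mark of dim signal, was 51.2 in the control and 67.4 in the treatment means. The control values of PAX2 and of COL1A2 (39.0 to 60.8) lay near that mark. The endothelial genes CDH5 and PECAM1 lay at 612 to 1299 and 80.7 to 149, and the fibroblast gene COL1A1 at 259 to 465, all above that mark. The part of these genes in any result was not tested. Median intensity per array ran from 77.2 to 84.2. Treatment replicate 3 stood farthest from the others, with a mean Pearson's r of 0.963 with the other 5 arrays, where each of them had at least 0.972.

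None of the constitutive proteasome genes changed past the threshold. Of 41 rows, 0 were called (limma, lowest adjusted p = 0.662), where 0.372% of all rows on the array were. At an unadjusted p under 0.05 stood 1 member, the assembly chaperone PSMG3, where 7.3% of all rows did. The median change over the members was -0.088, with 30 of 41 below 0, beside a median of 0.012 over all rows, of which 48.2% were below 0, and of -0.056 over the brightest 25% of rows. Changes of members ran from -0.61 for PSMG3 to 0.14 for the activator PSME4. The 95% interval lay within 2-fold either way for 40 of 41 members and within 1.5-fold for 21. Every member except the thymus subunit PSMB11 had a mean intensity above 100.

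**Figure D1:**
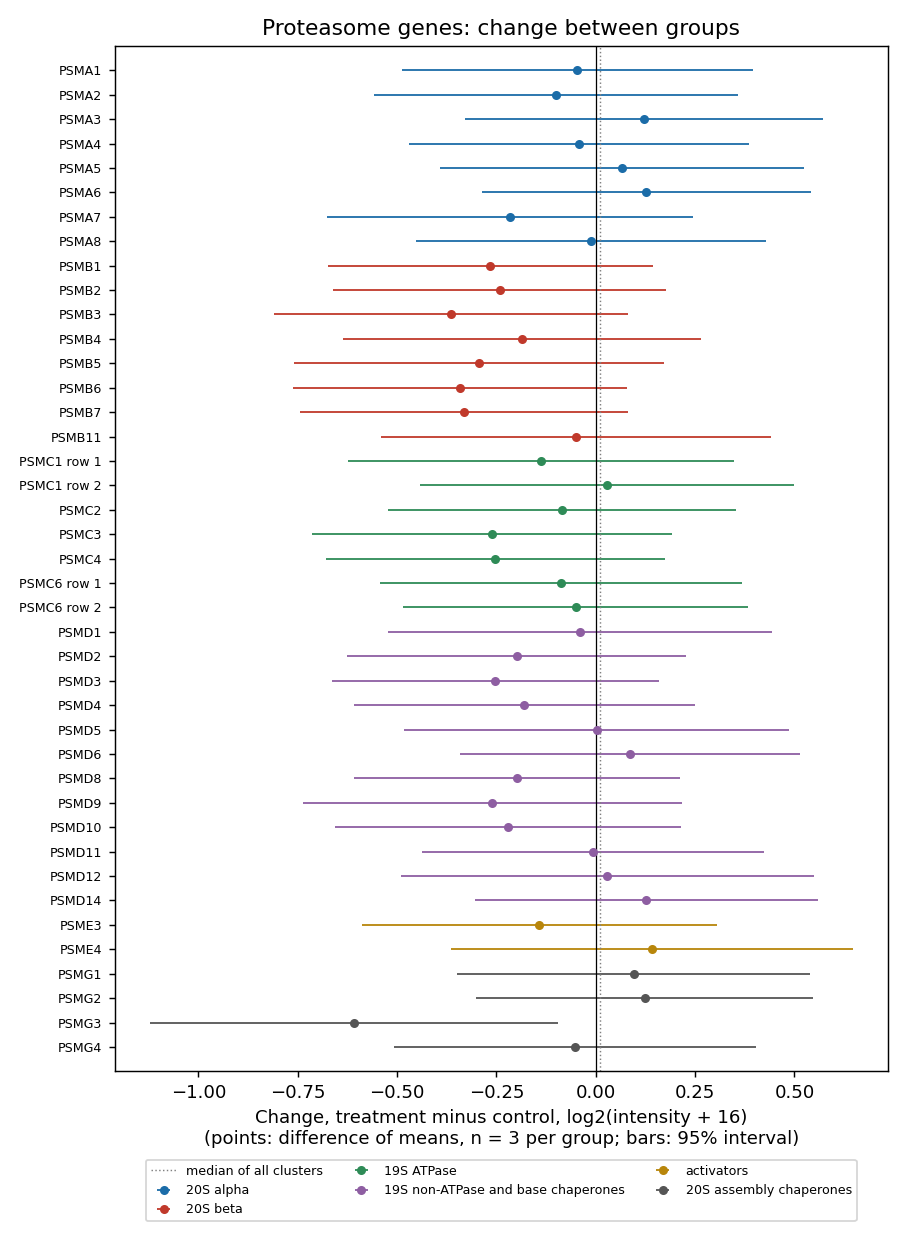
Change of each member between the groups on the log2(intensity + 16) scale, by role; points are differences of means of 3 treatment and 3 control arrays, bars the 95% interval of limma, and the dotted line the median of all rows (0.012). All 8 beta rows, the dim PSMB11 among them, sit left of 0, and PSMG3 has the lowest value (-0.61).

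The members did not all lean the same way, and the beta subunits were the role with the lowest median. All 8 beta rows, among them the dim PSMB11 (-0.049), had negative changes, with a median of -0.28, and 0 of 8 were called. The groups did not overlap for 4 of them, PSMB1, PSMB3, PSMB6 and PSMB7. Over all members that was so for 6 of 41, or 14.6%, all with the treatment arrays lower, where 7.1% of all rows were lower without overlap, and 0 members were higher without overlap, where 7.47% of all rows were. Bright rows were more often lower: among the brightest 25% of rows, which include 37 members, 11.5% were lower without overlap, and 6 of the 37 members (16.2%). The alpha rows had a median of -0.027 (8 rows, 5 below 0), the ATPases of -0.088 (7 rows, 6 below 0), the PSMD genes of -0.11 (12 rows, 8 below 0), the activators of -0.0005 (2 rows) and the PSMG chaperones of 0.022 (4 rows). The difference between roles was not tested. Members and roles were set by symbol alone, but with earlier results of these data known.

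Among the cutting subunits, PSMB6, which cleaves after acidic residues, gave 1432, 1451 and 1345 in control replicates 1, 2 and 3 and 1028, 1053 and 1258 in treatment replicates 1, 2 and 3. Every treatment array lay below every control array. The change was -0.34 ± 0.195 (SE), with a 95% interval of -0.76 to 0.079 (limma, adjusted p = 0.719). PSMB7, which cleaves after basic residues, gave 1443, 1325 and 1292 in the controls, then 1039, 1031 and 1146 under treatment. Its groups did not overlap either, and the change was -0.33 ± 0.192 (SE), with an interval of -0.74 to 0.08 (limma, adjusted p = 0.72). PSMB5, which cleaves after hydrophobic residues and is the main target of the drug bortezomib, gave 594, 583 and 447 in the controls, then 379, 408 and 534 under treatment. Treatment replicate 3 lay within the range of the controls, so the groups overlapped, and the change was -0.29 ± 0.216 (SE; interval -0.76 to 0.17; limma, adjusted p = 0.779).

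Of the beta subunits other than PSMB5, PSMB6 and PSMB7, PSMB3 came first and had the lowest p of the role. It gave 2184, 2390.4 and 2228 in the controls, then 1540.2, 1619.5 and 2171 under treatment. Treatment replicate 3 lay just below the lowest control array, while replicates 1 and 2 were far lower. The change was -0.36 ± 0.207 (SE), with an interval of -0.81 to 0.081 (limma, adjusted p = 0.717). PSMB1 gave 1697, 1714 and 1576 in the controls, then 1357, 1356 and 1428 under treatment, again without overlap, and a change of -0.26 (interval -0.67 to 0.14). PSMB2 (-0.24) and PSMB4 (-0.18) overlapped, in each case through treatment replicate 3, which for PSMB4 was the highest of all 6 arrays. PSMB11, the thymus-restricted subunit, was at 26.6 to 50.9 on every array, below the mark of dim signal in both groups, and its change was -0.049.

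With the outlying treatment replicate 3 left out, 3 members had an unadjusted p under 0.05, as did 10.2% of all rows in that setting, and still 0 were called. They were PSMG3 at -0.86 ± 0.182 (SE; limma, adjusted p = 0.201), PSMB3 at -0.52 ± 0.171 (adjusted p = 0.444) and PSMB6 at -0.43 ± 0.17 (adjusted p = 0.471). The median of the beta rows was then -0.36, and under the 15 alternative settings it ran from -0.36 to -0.23. Of the 8 beta rows, 7 in place of 8 were below 0 without control replicate 1 or without treatment replicate 1.

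The medians of the roles differed between the treatment arrays. Relative to the control mean, the beta rows had a median of -0.38 in treatment replicate 1, -0.34 in replicate 2 and -0.11 in replicate 3, on the log2 scale. The median of the ATPase rows, where PSMC1 and PSMC6 count with 2 rows each, went the other way round, with 0.043, 0.019 and -0.32. So did that of the PSMD rows, with 0.0497, -0.053 and -0.27. The alpha rows stayed between -0.048 and 0.089. Over all rows the same medians were 0.057, 0.0075 and -0.049, and over the brightest 25% of rows 0.036, -0.019 and -0.19, so bright rows in general were also lower in replicate 3. Not every row followed the median of its role. The ATPases PSMC3 (-0.43, -0.24 and -0.11) and PSMC4 (-0.40, -0.33 and -0.034) were highest in replicate 3, as most beta rows were. PSMD2, PSMD8 and PSMD9 were also highest there. The other ATPase and PSMD rows were lowest in replicate 3.

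**Figure D2:**
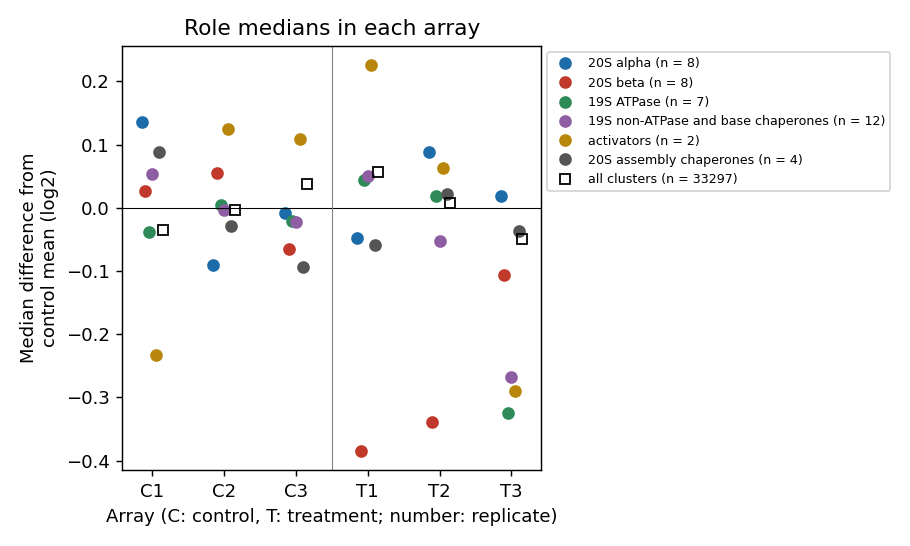
Median difference from the control mean on the log2(intensity + 16) scale in each array, by role, with all rows as open squares; C is control, T treatment and the number the replicate. The beta rows are lowest in T1 (-0.38) and T2 (-0.34), and the ATPase rows are lowest in T3 (-0.32).

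Counting single rows gave the same picture. In treatment replicate 1, 8 of 8 beta rows lay below all 3 control arrays, in replicate 2 it was 7 and in replicate 3 it was 4. Those of replicate 1 include the dim PSMB11, at 26.6 against a lowest control value of 26.7. Of the 7 ATPase rows, 2, 1 and 5 did so in replicates 1, 2 and 3, and of the 12 PSMD rows 4, 5 and 9. Over all rows of the array 23.7%, 23.9% and 35.5% lay below the controls in these 3 arrays, and over the brightest 25% 30.7%, 29.3% and 52.4%. The part of replicate 3's general shift in the values of the ATPase and PSMD rows was not tested. Without that array the ATPase median was 0.045 in place of -0.088 and the PSMD median -0.0027 in place of -0.11, so most of the negative median of either role rests on it.

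**Figure D3:**
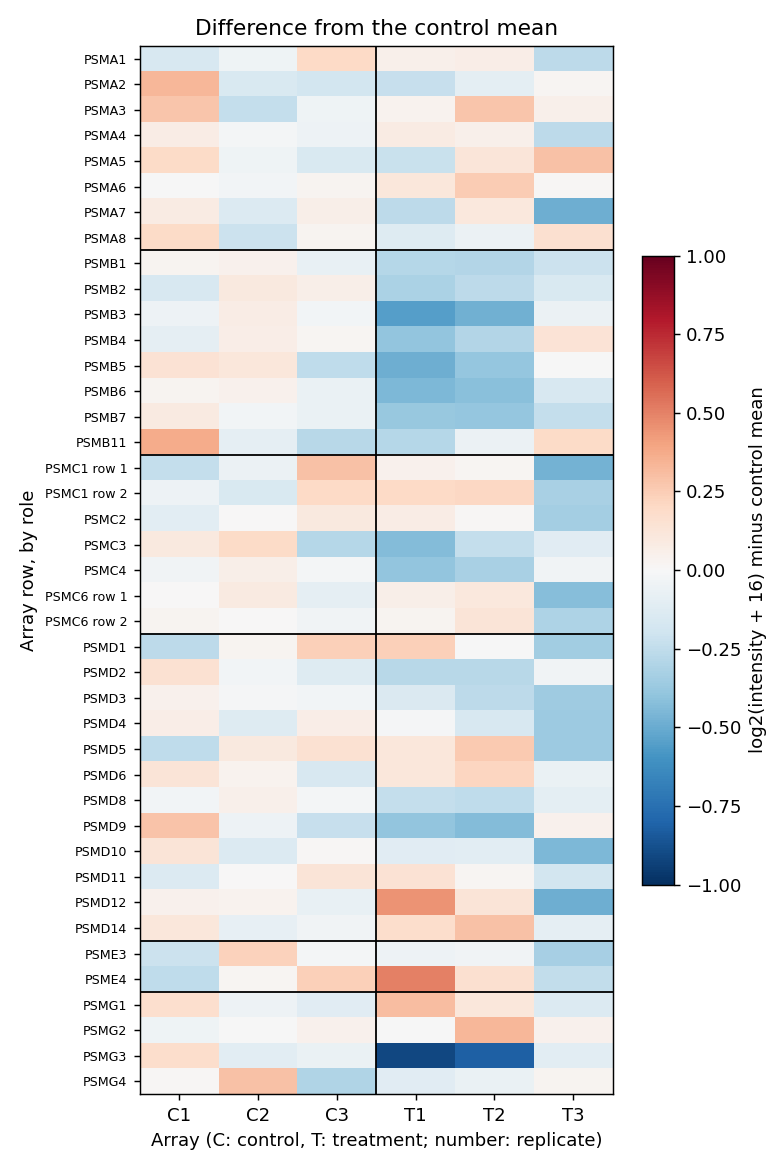
Difference of each member from its control mean on the log2(intensity + 16) scale, with a row for each array row by role and a column for each array; blue is lower and red higher than the control mean. Most beta rows are blue in T1 and T2, while most ATPase and PSMD rows are blue in T3.

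The alpha subunits showed no common direction. PSMA7, a ring subunit known to bind regulators such as HIF1A, had the lowest p of the role and gave 585, 499.7 and 576 in the controls, then 457, 596 and 388 under treatment. Treatment replicates 1 and 3 were below all controls and replicate 2 above them, and the change was -0.22 (interval -0.68 to 0.25; limma, adjusted p = 0.839), which ran from -0.38 without treatment replicate 2 to -0.078 without replicate 3. PSMA6, a subunit of the same ring, gave 995, 983 and 1019.8 in the controls, then 1080.4, 1197 and 1009 under treatment. Treatment replicates 1 and 2 were above all controls and replicate 3 within their range, and the change was 0.13 (interval -0.29 to 0.54). PSMA1 (-0.046), PSMA2 (-0.10), PSMA3 (0.12), PSMA4 (-0.043) and PSMA5 (0.066) also overlapped between the groups. PSMA4 gave 2579, 2406 and 2354 in the controls, then 2588, 2535 and 2033 under treatment. PSMA8, the testis form of PSMA7, was not dim, at 439 to 588, and its change was -0.011; whether its probes also read another transcript was not tested.

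The sign of the alpha median depended on the setting. It was 0.017 with quantile normalization, 0.076 without control replicate 1, 0.0065 without treatment replicate 1 and 0.0064 without treatment replicate 3, against -0.027 in the main test.

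Among the ATPases, PSMC4 had the lowest p and gave 1620.1, 1734 and 1640.4 in the controls, then 1261, 1322 and 1625 under treatment. Treatment replicates 1 and 2 were below all controls and replicate 3 within their range. The change was -0.25 (interval -0.68 to 0.17; limma, adjusted p = 0.792). PSMC3 gave 912, 975 and 698 in the controls, then 628, 721 and 789 under treatment, with a change of -0.26 and an overlap through treatment replicates 2 and 3; the change was -0.17 without control replicate 2 and -0.40 without control replicate 3. PSMC2 (-0.085) and both rows of PSMC1 (-0.14 and 0.027) and PSMC6 (-0.088 and -0.05) had their lowest value in treatment replicate 3. RefSeq names 13 pseudogenes after PSMC1 and 3 after PSMC6, and 19 of the 39 member genes have at least 1, so a row of these genes may also read a processed copy.

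The PSMD genes hold lid and base subunits of the 19S cap and chaperones of its base. PSMD3, a lid subunit, had the lowest p of the role and gave 1679.6, 1617 and 1606 in the controls, then 1479, 1359 and 1276 under treatment. The groups did not overlap, and the change was -0.25 (interval -0.66 to 0.16; limma, adjusted p = 0.787). PSMD8, another lid subunit, did not overlap either (2437, 2566 and 2444 in the controls, then 2105, 2074 and 2313 under treatment; change -0.20). PSMD9, a chaperone of the ATPase ring, had the second lowest p and gave 240.1, 187 and 163 in the controls, then 144, 140.1 and 201 under treatment. Its groups overlapped and its change was -0.26 (interval -0.74 to 0.22), with -0.41 without treatment replicate 3 and -0.12 without control replicate 1. Gankyrin, PSMD10, another such chaperone, gave -0.22, and PSMD5, the remaining one among the PSMD genes, 0.0023.

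The ubiquitin receptor PSMD4 gave -0.18 and PSMD14, the deubiquitinase of the lid, 0.13 (interval -0.30 to 0.56). The base scaffolds PSMD1 and PSMD2 gave -0.039 and -0.20. PSMD11, a lid subunit whose abundance is known to limit assembly of the whole complex in stem cells, gave -0.0067, and PSMD6 0.087. PSMD12 had the largest SE of all members (0.242), with 902, 896 and 829 in the controls, then 1202, 958 and 619 under treatment. Replicate 1 was the highest array and replicate 3 the lowest, so the change of 0.03 averages opposite values.

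PSME3 and PSME4 encode activators that can cap the core in place of the 19S complex. PSME3, the nuclear PA28 gamma, gave 556, 762 and 639 in the controls, then 622, 630.2 and 509 under treatment, a change of -0.14 (interval -0.59 to 0.30). PSME4, or PA200, gave 442, 536 and 626 in the controls, then 759, 595 and 445 under treatment, a change of 0.14 (interval -0.36 to 0.65). Both overlapped, and both had their lowest treatment value in replicate 3. Without control replicate 2 the change of PSME3 was -0.027 and without control replicate 1 it was -0.25. Without treatment replicate 1 the change of PSME4 was -0.041 and without treatment replicate 3 it was 0.33.

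PSMG3 showed the lowest change of all members. With PSMG4 it forms a dimer that helps to build the alpha ring. It gave 232, 187 and 192 in the controls, then 101, 108 and 188 under treatment. Treatment replicates 1 and 2 were lowest, and replicate 3 lay just inside the control range, so the groups overlapped. The change was -0.61 ± 0.239 (SE), with an interval of -1.12 to -0.094 (limma, adjusted p = 0.662). Its partner PSMG4 gave 114, 143 and 89.1 in the controls, then 104, 108 and 116 under treatment, a change of -0.051. Both genes of the other chaperone dimer had means above those of the controls: PSMG2 gave 384, 393 and 409 in the controls, then 394, 501 and 408 under treatment, a change of 0.12, and PSMG1 a change of 0.095.

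The constitutive cutting subunits were set beside the inducible ones that can replace them. PSMB9 rose, from 65.6 ± 16.7 (SD, n = 3) in the controls to 432 ± 196 (SD, n = 3) under treatment, a change of 2.37 ± 0.313 (SE; limma, adjusted p = 0.00163), while PSMB6 was lower without a call. PSMB9 was not called on plain log2 values (limma, adjusted p = 0.263), nor with an offset of 1 (adjusted p = 0.121) or without control replicate 1 (adjusted p = 0.0566), and its change ran from 1.98 to 2.78 over the 15 alternatives. Within each array the log2 value of PSMB9 minus that of PSMB6 was -4.49, -3.90 and -4.05 in the controls, then -2.16, -1.11 and -1.04 under treatment. The groups did not overlap, and the difference changed by 2.71 (exact permutation test, two-sided, p = 0.1, the smallest that 3 against 3 arrays can give; 0.15 adjusted over the 3 pairs). The controls of PSMB9 lay near the mark of dim signal.

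PSMB8 was dim, with 30.2, 24.4 and 16.8 in the controls, then 34.5, 63.2 and 88.3 under treatment. The groups did not overlap, but its change of 0.92 ± 0.263 (SE) was not called (limma, adjusted p = 0.414), although it was without treatment replicate 1 (1.21, adjusted p = 0.0419). PSMB8 minus PSMB5 went from -3.72, -3.89 and -3.82 to -2.97, -2.42 and -2.40, a change of 1.22 without overlap (exact permutation p = 0.1, adjusted 0.15). PSMB10 gave 48.2, 40.5 and 59.9 in the controls, then 55.0, 36.1 and 33.4 under treatment, near the mark of dim signal, and a change of -0.20. PSMB10 minus PSMB7 overlapped between the groups and changed by 0.14 (exact permutation p = 0.6, adjusted 0.6), which turned to -0.047 without treatment replicate 1.

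**Figure D4:**
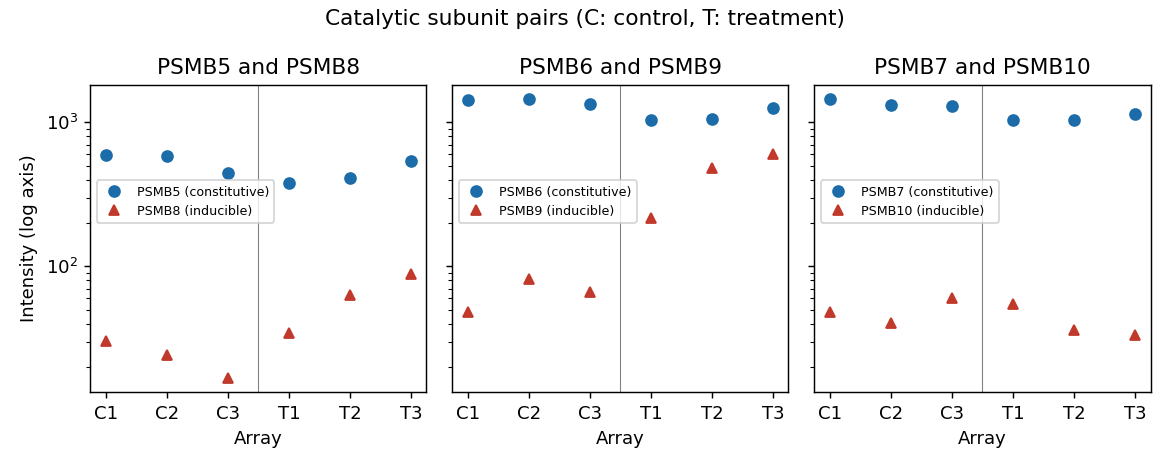
Intensity on a log axis of each constitutive cutting subunit (circles) and the inducible subunit that can replace it (triangles) on the 6 arrays; C is control, T treatment. PSMB9 stands at 217 to 601 in the treatment arrays against 48.6 to 82.0 in the controls, while PSMB5, PSMB6 and PSMB7 are slightly lower in most treatment arrays; heights of different genes are not comparable.

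Promoters of these genes were read from RefSeq (build GRCh38.p14), as the 250 bases before the start site, and 33 of the 39 member genes had an entry. The core of the antioxidant response element, TGACNNNGC, which binds NFE2L1 and NFE2L2, known activators of subunit genes, was present in 8 of 33 (24.2%), against 11% of 27305 promoters in the table. The members were PSMB3, PSMD3, PSMD5, PSMD9, PSMD12, PSME4, PSMG1 and PSMG2, whose changes ran from -0.36 to 0.14. A core of the interferon-stimulated response element, GAAANNGAA, was present in 3 of 33 (9.09%), namely PSMA4, PSMB4 and PSMG4, against 7.06% of all, and in 2 of the 5 inducible genes, PSMB10 and PSME2. Both strands were searched. A match describes letters, and whether a site is used was not tested. The members with the interferon core had changes of -0.043, -0.18 and -0.051. PSMB9, which rose, has no match to that core in this window, and bases outside the window were not searched.

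PSMB3 and PSMB4 are shown as beta subunits with either core, and PSMB9 and PSMB10 as inducible subunits with the same cores. Capitals mark the match, which begins 104 bases before the start in PSMB3, 68 in PSMB4, 148 in PSMB9 (on the opposite strand) and 21 in PSMB10.
PSMB3, chr17:38752491-38752740, plus strand: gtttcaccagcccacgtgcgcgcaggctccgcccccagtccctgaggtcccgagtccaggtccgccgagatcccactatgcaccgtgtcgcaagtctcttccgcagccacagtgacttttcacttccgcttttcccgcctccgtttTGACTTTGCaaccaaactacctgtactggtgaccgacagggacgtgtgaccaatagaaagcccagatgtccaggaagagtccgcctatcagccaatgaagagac
PSMB4, chr1:151399323-151399572, plus strand: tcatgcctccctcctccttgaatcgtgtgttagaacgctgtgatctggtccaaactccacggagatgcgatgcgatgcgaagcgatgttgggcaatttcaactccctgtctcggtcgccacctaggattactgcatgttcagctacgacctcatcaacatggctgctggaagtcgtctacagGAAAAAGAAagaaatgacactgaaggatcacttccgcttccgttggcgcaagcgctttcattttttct
PSMB9, chr6:32853942-32854191, plus strand: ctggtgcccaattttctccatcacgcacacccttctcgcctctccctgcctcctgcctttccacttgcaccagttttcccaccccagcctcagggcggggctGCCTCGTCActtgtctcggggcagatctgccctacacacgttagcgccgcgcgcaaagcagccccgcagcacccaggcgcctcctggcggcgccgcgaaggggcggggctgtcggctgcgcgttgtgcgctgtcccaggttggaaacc
PSMB10, chr16:67936851-67937100, minus strand: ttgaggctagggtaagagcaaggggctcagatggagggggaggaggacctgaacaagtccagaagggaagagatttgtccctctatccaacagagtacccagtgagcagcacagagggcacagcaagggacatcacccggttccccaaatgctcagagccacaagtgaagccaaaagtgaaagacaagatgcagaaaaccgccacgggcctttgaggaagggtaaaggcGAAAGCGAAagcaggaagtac

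Partners of the proteasome were also followed, from a list of 42 genes, of which 36 had a row of their own. Of the 36, 0 were called in either direction (limma, lowest adjusted p = 0.725), and 0 had an unadjusted p under 0.05, where 7.3% of all rows had. Their median change was -0.062, with 23 below 0 and 13 above. The maturation factors and cap-associated proteins had a median of -0.014 (14 genes), the regulators of subunit genes -0.080 (7), the shuttles and segregase factors -0.16 (12) and ubiquitin and its activating enzymes -0.13 (3).

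ADRM1, a ubiquitin receptor of the cap, had the lowest p, with 1021, 1171 and 1046 in the controls, then 828, 802 and 937 under treatment. The groups did not overlap, and the change was -0.33 ± 0.194 (SE; interval -0.75 to 0.089; limma, adjusted p = 0.725). POMP, which guides the beta subunits into the maturing core, gave 623, 509 and 512 in the controls, then 428, 426 and 443 under treatment, also without overlap, and a change of -0.33 ± 0.195 (SE; interval -0.75 to 0.095; adjusted p = 0.726). NFE2L1, which is known to switch on subunit genes when proteasome activity is short, gave 778, 929 and 739 in the controls, then 602, 624 and 721 under treatment, without overlap, and a change of -0.32 ± 0.200 (SE; interval -0.75 to 0.11; adjusted p = 0.738). VCP, the ATPase that pulls substrates out of complexes, gave 1905, 1721 and 1783 in the controls, then 1577, 1478 and 1453 under treatment, without overlap, and a change of -0.26. Of these 4 genes 0 were called. Of all 36 partners, 5 (13.9%), these and DDI1, were lower without overlap and 0 higher, beside the 7.1% and 7.47% of all rows. Among the brightest 25% of rows, 11.5% were lower without overlap. How many partners are among those rows was not counted.

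Of the other partners with the lowest p of their group, SYVN1, a ubiquitin ligase of the endoplasmic reticulum, gave -0.24 and the dim DDI1 -0.29. The change of SYVN1 was -0.47 without control replicate 1 and -0.032 without control replicate 3. The ubiquitin-activating enzymes UBA1 (interval -0.64 to 0.27) and UBA6 (interval -0.31 to 0.69) gave -0.18 and 0.19. Both overlapped, and the difference between them was not tested.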

How the data were processed

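RNA was extracted with an RNeasy kit and hybridised to Affymetrix Gene 1.0 ST arrays, per the labels' protocols, and the submitters' processing notes name Partek. The values deposited are intensities on a linear scale, with 1 for each transcript cluster (here called a row) on each array. How background, normalization and probe summary were handled, and on which build, is not given in the sources used here. Columns were matched to samples by accession. Symbols came from the platform annotation of 2016, which gave 1 symbol to 19460 rows, several to 1754 and none to 12083, and RefSeq changed 0 of them. No member row had several symbols.

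An offset of 16 was added before log2, and each row was fitted with limma 3.58.1 (lmFit, eBayes; R 4.3.3), two-sided, without a block, over all 33297 rows. The fit was tested on simulated data. Fold changes understate changes of dim rows. Exact permutation tests were run in Python 3.11.15 on the 3 subunit pairs. PSMB8 and PSMB9 have 3 identical rows each, counted once.

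Every member is accounted for. Values on every array are given for the 2 members of each role with the lowest p and for the cutting subunits, and for some others where their arrays are described, chosen after the values were seen. Partners named are the 2 of each group with the lowest p. The members and lists were chosen with earlier results of these data known, and so was the offset. The number of arrays limits the precision. Alternatives were other offsets, scalings and filters, an intensity trend, 1 row per gene, the replicate number as a block and leaving out each array.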

Additional observations from a re-analysis of the deposited data

How the results depend on the processing

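Under all 15 alternative settings, 0 members and 0 partners were called. The lowest adjusted p of a member (limma) was 0.201, without treatment replicate 3, and the highest of these minima 0.953, with the replicate block. The block called 105 of all rows, against 124 without it. Deviations of same-numbered arrays correlated at -0.166, 0.0839 and -0.356. With 3 arrays per group these values cannot show whether same-numbered arrays share a culture or batch, and no label states a pairing. The median change over the members ran from -0.16, without treatment replicate 1, to -0.078, without treatment replicate 3, when an array was left out, and from -0.14 with median centring to -0.068 with quantile normalization otherwise. At an unadjusted p under 0.05 stood 5 members with an offset of 50 (8.37% of all rows) and 4 with an intensity trend (6.64% of all rows), among them PSMB3, PSMB6 and PSMB7 in both, against 1 in the main test (7.3% of all rows). The change in PSMB9 minus PSMB6 ran from 2.31 to 2.98 over the scalings and offsets and from 2.51 to 3.07 with an array left out, that in PSMB8 minus PSMB5 from 0.85 to 1.62 and from 1.12 to 1.40, and that in PSMB10 minus PSMB7 from 0.018 to 0.20 and from -0.047, without treatment replicate 1, to 0.28. Of 375 values of 25 named genes under the alternatives, 1 changed direction, that of PSME4 without treatment replicate 1 (-0.041), and its change ran up to 0.33 with another array left out. The 375 include settings that leave the change of a named gene as it is, so its direction could not turn there. These are the replicate block, the intensity trend, the filter of dim rows and 1 row per gene. With 1 array left out, the changes of 12 of the 25 moved by over 1.5 times, and 0 of these 12 were called. The causes were not tested.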

Other observations

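The remaining genes of the PA28 family differ from PSME3 in being known targets of interferon gamma. PSME1, which pairs with PSME2 in a cap of the core, gave 615, 669 and 661 in the controls, then 699.5, 822 and 1023 under treatment, without overlap, and a change of 0.36 ± 0.207 (SE) that was not called (limma, adjusted p = 0.718). PSME2 gave 154, 182 and 173 in the controls, then 156, 166 and 209.8 under treatment, with overlap, and a change of 0.047 (interval -0.39 to 0.48).

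In all, 9 motifs were searched in the promoters of the 33 members with an entry, on both strands. The ETS core CCGGAAG was present in 27.3% of members and 8.82% of all promoters, the variant antioxidant element TGAGNNNGC in 30.3% and 14.8%, the gamma-activated site TTCNNNGAA in 15.2% and 6.78%, the GC box GGGCGG in 60.6% and 42.3%, the CCAAT box in 45.5% and 33%, the nuclear respiratory factor core GCGCANGCG in 9.09% and 7.02%, and the YY1 core AAGATGGC in 3.03% and 1.37%. These shares describe letters and were not tested.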
